A study of Homo sapiens with 6 samples.

Results

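The chaperones and folding enzymes of the endoplasmic reticulum (ER) and the genes of the unfolded protein response (UPR) were examined in HCCLM3, a human hepatocellular carcinoma cell line, by RNA-seq. The set comprised 40 genes, taken by gene symbol from the 20381 genes of the deposited count table: chaperones, disulfide isomerases, ER-associated degradation (ERAD) factors and UPR sensors. The lists were drawn up for a line that was made to express a secreted enzyme, and measured expression was no part of the rule. All 40 symbols were found. In the PON1-OE group (3 libraries), the cells carried the coding sequence of *PON1*, which encodes the HDL-bound serum enzyme paraoxonase 1, in a lentiviral vector, and the labels describe a stable overexpression. In the NC group (3 libraries), the cells were the negative control, which the design text calls an empty vector lentivirus. Both groups were the same parental line, were infected with lentivirus and were screened with puromycin, and the design text speaks of 15% serum and of cells lysed 24 h after they were transfected, although the labels name a stable line. Whether a group was a single clone or a pool, which promoter drove *PON1*, and how the 3 libraries of a group were derived were not given in the sources used here. All p-values below therefore set the difference between the groups against the spread between these libraries, which may be technical.

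As background, proteins that are destined for secretion or for the cell surface enter the ER through the SEC61 channel, fold there with the help of chaperones and disulfide isomerases, and are retrotranslocated and degraded when they fail to fold. When unfolded proteins accumulate, the sensors IRE1 (*ERN1*), PERK (*EIF2AK3*) and ATF6 are activated, and IRE1 splices the *XBP1* mRNA into the form that encodes an active transcription factor. ATF6 and spliced XBP1 then raise the transcription of chaperone, isomerase and ERAD genes, while PERK slows translation. Hepatocytes secrete most plasma proteins and are rich in these factors. The gene counts do not separate spliced from unspliced *XBP1*, and the activation of the sensors is a protein event that an mRNA level does not show.

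Promoters of the set were searched for the sites through which ATF6 and XBP1 act. RefSeq promoter windows on GRCh38.p14, from 250 bases before to 50 bases after the start site, were at hand for 37 of the 40 genes (not for *DERL1*, *DERL3* and *PDIA3*). The ER stress element (CCAAT, any 9 bases, then CCACG, read on both strands) was present in 7 of 37 windows, or 18.9%, against 22 of all 27305 windows, or 0.0806%. The windows that held it belonged to *HSPA5*, *HSP90B1*, *CALR*, *CANX*, *XBP1*, *CRELD2* and *ERO1B*. Its second block alone, CCACG, was found in 23 windows (62.2%, against 37.9% of all windows), and CCAAT alone in 28 (75.7%, against 35.7%). Both of these counts include the complete elements. The site TGACGTGG, whose opposite strand holds a CCACG, was found in the windows of *HYOU1* and *DNAJC10* (5.41%, against 0.795% of all windows). A match is a description of letters in a window and no evidence of binding. The 4 windows printed here belong to genes on which the results turn, and they show how the element is spaced. Each is written 5′ to 3′ on the gene's own strand, with the complete element or TGACGTGG in capitals.
*HSPA5* (chr9:125241294-125241593, minus strand): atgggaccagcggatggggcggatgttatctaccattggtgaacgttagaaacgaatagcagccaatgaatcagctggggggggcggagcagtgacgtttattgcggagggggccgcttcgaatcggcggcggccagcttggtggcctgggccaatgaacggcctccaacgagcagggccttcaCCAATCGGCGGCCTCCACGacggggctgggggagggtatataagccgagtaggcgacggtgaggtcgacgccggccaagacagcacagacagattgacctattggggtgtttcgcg
*HSP90B1* (chr12:103930160-103930459, plus strand): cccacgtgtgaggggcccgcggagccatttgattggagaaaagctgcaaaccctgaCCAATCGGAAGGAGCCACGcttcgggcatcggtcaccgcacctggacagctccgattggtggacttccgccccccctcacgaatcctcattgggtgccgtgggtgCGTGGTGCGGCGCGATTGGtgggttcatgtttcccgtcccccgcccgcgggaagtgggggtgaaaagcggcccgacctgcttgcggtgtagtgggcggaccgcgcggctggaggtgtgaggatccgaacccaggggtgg
*XBP1* (chr22:28800520-28800819, minus strand): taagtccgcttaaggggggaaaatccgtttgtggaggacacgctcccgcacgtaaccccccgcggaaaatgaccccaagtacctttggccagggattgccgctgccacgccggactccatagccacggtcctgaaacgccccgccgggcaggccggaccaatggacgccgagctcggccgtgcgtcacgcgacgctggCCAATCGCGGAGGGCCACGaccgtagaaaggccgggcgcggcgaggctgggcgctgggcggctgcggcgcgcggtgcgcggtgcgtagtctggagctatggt
*HYOU1* (chr11:119057156-119057455, minus strand): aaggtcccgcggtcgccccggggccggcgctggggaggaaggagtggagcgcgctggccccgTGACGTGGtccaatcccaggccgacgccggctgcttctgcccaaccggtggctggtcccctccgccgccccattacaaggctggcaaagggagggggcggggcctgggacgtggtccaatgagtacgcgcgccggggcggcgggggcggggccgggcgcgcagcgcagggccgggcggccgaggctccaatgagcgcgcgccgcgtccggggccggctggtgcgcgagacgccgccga
The window of *HSPA5* held 1 complete element, that of *HSP90B1* held 2 (the one nearer the start site on the opposite strand), that of *XBP1* held 1, and that of *HYOU1* held TGACGTGG once and no complete element.

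The overexpressed gene was examined first. NC replicates 1 to 3 held 0, 2 and 3 estimated counts of *PON1*, whereas PON1-OE replicates 1 to 3 held 155, 181 and 167. The mean was 0.0955 ± 0.0889 against 10.5 ± 0.955 CPM (counts scaled to a common library size, with TMM factors; mean ± SD, n = 3), a log2 fold change (log2FC) of 6.65 (adjusted p = 2.99e-11 from edgeR's quasi-likelihood F-test, adjusted after Benjamini-Hochberg over 11958 tested genes). The NC libraries were at or under 3 counts, so that the size of the fold rests on 5 counts in all. The ratio of the summed counts (503 against 5), corrected for library size, was 108 (95% exact interval 46.0 to 334, counting error only), and the fitted log2FC was 6.13 without NC replicate 1 and 7.33 without NC replicate 3. The level of *PON1* went with the label in all 6 libraries. Library totals ranged from 15706672 to 17948383 estimated counts, so that 3 counts corresponded to 0.166 to 0.192 CPM. Of the hepatocyte markers, 6 of 11 passed the filter on low counts. Their summed level was 147 to 150 CPM in NC and 143 to 148 CPM in PON1-OE, and *TTR* and *SERPINA1* had at most 3 counts in every library. *ALB*, the gene of serum albumin, was near the floor, with 0.363, 0.608 and 0.762 CPM in NC and 0.670, 0.250 and 0.447 CPM in PON1-OE. Epithelial markers (4 of 5 passed) summed to 3666 to 4162 CPM and 3818 to 4053 CPM. Markers of other cells summed to 16.0 to 21.0 and 16.7 to 20.2 CPM for fibroblasts (2 of 6 passed), 13.3 to 13.8 and 14.1 to 16.4 CPM for endothelium (1 of 3) and 206 to 227 and 224 to 248 CPM for leukocytes (1 of 4, *CD68*). *PTPRC* and *CD3E*, also on the leukocyte list, had at most 3 counts in every library. All libraries came from the same parental line, and the sums are levels of marker genes, not numbers of cells. In bulk libraries, fewer cells that express a gene and less of its RNA per cell cannot be told apart.

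None of the 39 genes tested changed at an adjusted p under 0.05 by edgeR's quasi-likelihood test or limma-voom, nor by DESeq2 where it gave one. DESeq2 gave no adjusted p for at least *PDIA5* (DESeq2 unadjusted p = 0.0239), *EIF2AK3* and *SDF2L1*, so these could not pass there. The filter on low counts had removed *DERL3*. Of the 39 genes, 28 were higher and 11 lower in PON1-OE, with log2FC from −0.094 (*DNAJC3*) to 0.28 (*PDIA5*). The median log2FC was 0.043, or 71.8% of genes above 0, against a median of −0.0025 and 49.0% above 0 over all genes tested. The smallest adjusted p in the set was 0.211 (*PDIA5*, edgeR's quasi-likelihood test), while 0.677% of all genes tested passed the adjusted threshold. At an unadjusted p under 0.05, which is no call, edgeR's test picked 6 genes or 15.4%, against 11.1% of all genes tested. All 6 were higher in PON1-OE (*HYOU1*, *PDIA4*, *PDIA5*, *P4HB*, *XBP1* and *EDEM2*), where 5.91% of all genes were picked as higher and 5.17% as lower. Every PON1-OE library lay above every NC library for 8 genes or 20.5%, namely these 6 with *PDIA3* and *HERPUD1*, against 8.32% of all genes tested. No gene of the set had every PON1-OE library below every NC library, against 7.74% of all genes. The count of 6 moved with the library that was left out. It was 11 without PON1-OE replicate 2 (10 higher, and *SEC61B* lower), where 12.9% of all genes were picked. It was 3 without NC replicate 1, without NC replicate 3 or without PON1-OE replicate 3, where 8.20%, 8.17% and 8.29% of all genes were picked. It was 8 without PON1-OE replicate 1 and stayed at 6 without NC replicate 2, where 10.7% and 11.4% of all genes were picked.

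**Figure D1:**
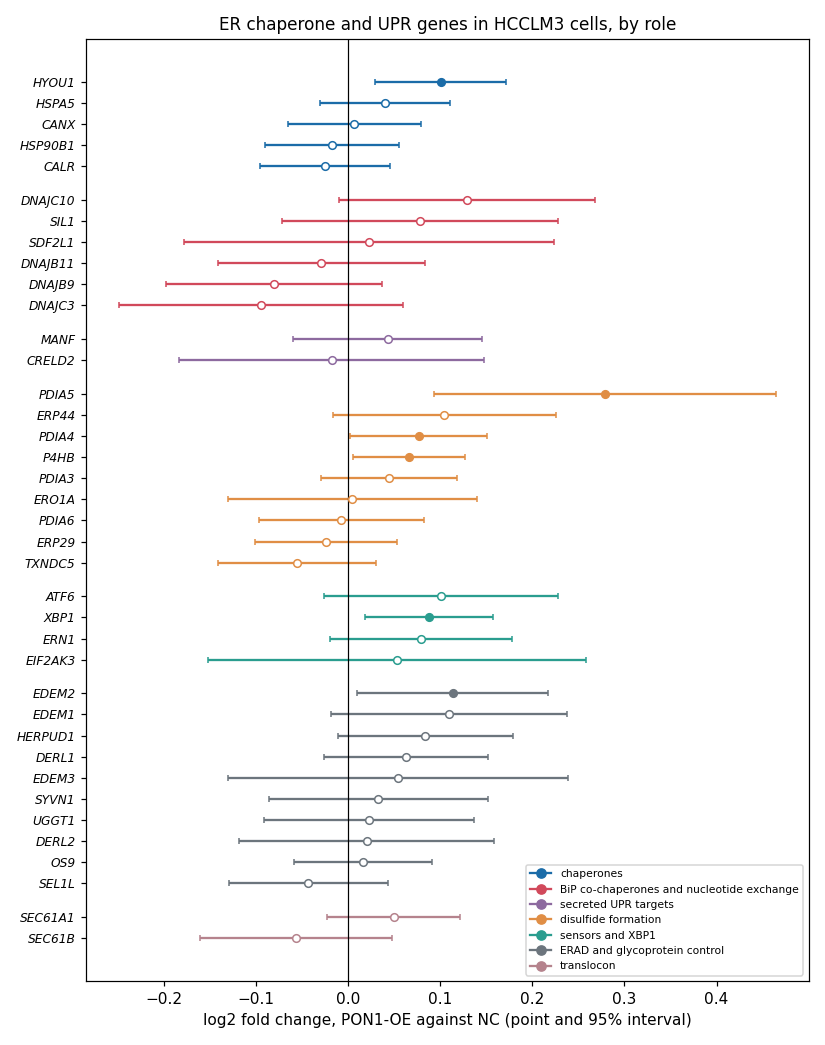
Log2 fold change of 38 genes between PON1-OE and NC (x axis; y axis, genes grouped and coloured by role), with points for the estimate, bars for the 95% interval and filled points for an unadjusted p under 0.05. The 6 filled points (*HYOU1*, *PDIA4*, *PDIA5*, *P4HB*, *XBP1* and *EDEM2*) lie to the right of 0, and most intervals span 0; *DERL3* (not tested) and *ERO1B* (interval −0.89 to 1.09) are left out.

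Differences were small and the intervals were narrow. For 36 of the 39 genes, the 95% interval of the difference lay within a 1.2-fold change in either direction, and for 12 genes within a 1.1-fold change. Apart from *ERO1B*, with 9 to 33 counts a library, and *PDIA5*, all intervals lay between −0.25 and 0.27 on the log2 scale. The narrow intervals went with high counts and a small spread. The coefficient of variation of the genes had a median of 3.11% among NC and 3.70% among PON1-OE libraries, against 5.44% and 6.11% over all genes tested, and the median level of all genes tested was 28.8 CPM against 103 CPM in the set.

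**Figure D2:**
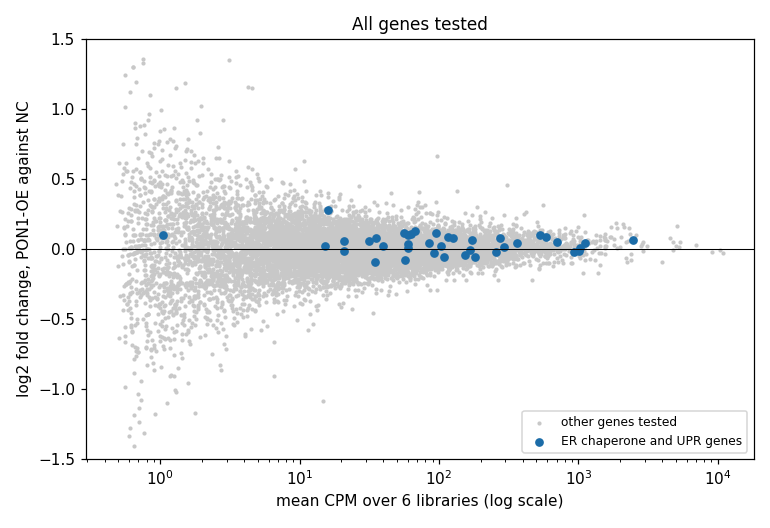
Log2 fold change between PON1-OE and NC (y axis) against the mean CPM of the 6 libraries (x axis, log scale) for the genes tested, with the 39 ER chaperone and UPR genes in blue and the others in grey; 6 other genes lie beyond the axis limit of 1.5. The blue points sit close to 0, between −0.094 and 0.28, and mostly at high CPM.

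The set was strongly expressed. Levels between genes are compared as CPM per kilobase of exon. The length is that of all annotated exons of a gene merged, from GENCODE v29, and can exceed that of a single transcript. *P4HB*, the gene of protein disulfide isomerase, was first with 953 CPM per kilobase, followed by *CALR* (488), *HSP90B1* (350.2), *XBP1* (288), *HSPA5* (284) and *CANX* (229). The lowest levels on this scale were those of *DNAJC10* (3.21), *ERO1B* (0.230) and *DERL3* (0.0217 CPM per kilobase). The value of *DNAJC10* rests on a merged exon length of 21040 bases. Without the division by length, *DNAJC10* had CPM rank 3276 among the genes tested, and *ERO1B* rank 11521. By CPM, 20 of the 40 genes exceeded 100 CPM, 12 were among the 1000 highest genes of the table and 4 among the 100 highest. The 5 genes with the highest CPM held 56.4% of the summed CPM of the set, and *P4HB* alone 21.4%. Of the counts of NC replicates 1 to 3, the set took 1.16%, 1.15% and 1.14%, and of those of PON1-OE replicates 1 to 3 it took 1.16%, 1.16% and 1.18%. Summed over the set, NC libraries had 11582, 11426 and 11357 CPM, below the 11616, 11759.6 and 11827 CPM of the PON1-OE libraries, with no overlap. Without *P4HB* the sums were 9113, 9018 and 8959 against 9096, 9179 and 9310.4 CPM, and the groups overlapped.

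**Figure D3:**
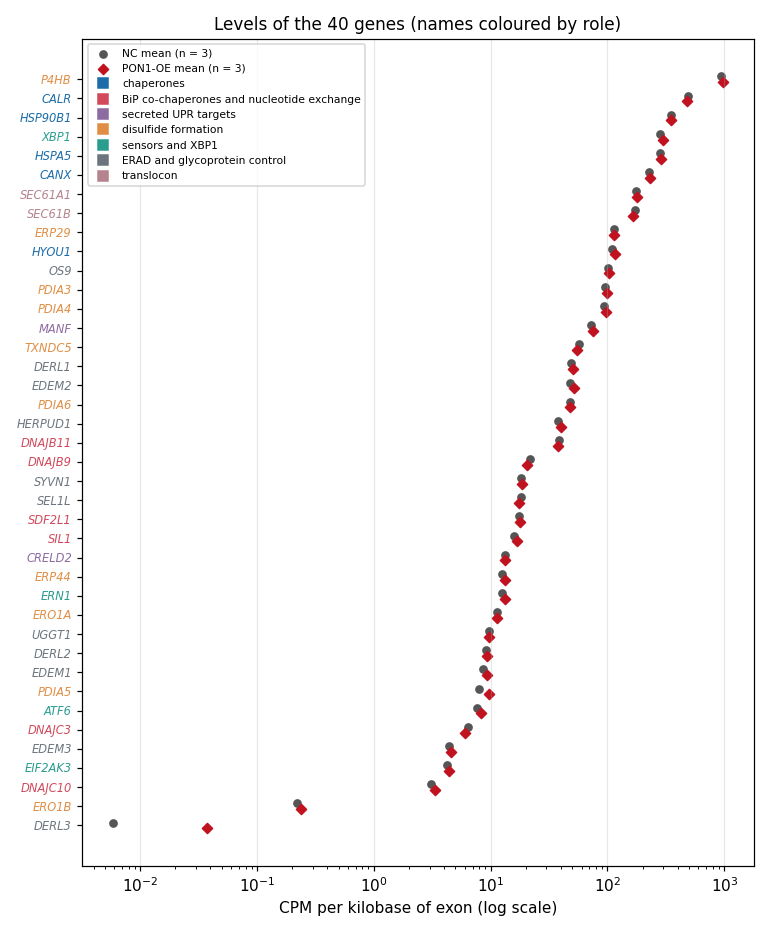
Mean level of each of the 40 genes in NC (grey circles) and PON1-OE (red diamonds), in CPM per kilobase of exon on a log axis, 3 libraries a group, with gene names coloured by role. Means over all 6 libraries, which are not drawn, run from 0.0217 (*DERL3*) to 953 CPM per kilobase (*P4HB*). The marks of both groups nearly coincide for most genes.

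The general chaperones were high and close to equal in both groups (5 genes, 3 higher and 2 lower, median log2FC 0.0066). In what follows, the values of a gene are listed for replicates 1, 2 and 3 in that order. *HSPA5* (ENSG00000044574) encodes BiP, the Hsp70 chaperone of the ER that also holds the UPR sensors inactive. It had 1105, 1114 and 1063 CPM in NC and 1081, 1146 and 1148 CPM in PON1-OE. The groups overlapped, with a log2FC of 0.040 (95% interval −0.031 to 0.11). *HSP90B1*, which encodes the ER-resident Hsp90 protein GRP94, had 993, 1026 and 1009 CPM in NC and 1022, 946 and 1024 CPM in PON1-OE. Here PON1-OE replicate 2 was the lowest of all 6 libraries and the groups overlapped, with a log2FC of −0.017 (95% interval −0.090 to 0.056). *CALR* encodes the lectin chaperone calreticulin, whose membrane-bound counterpart is calnexin (*CANX*). *CALR* had 954, 927 and 932 CPM in NC and 898, 960.3 and 906 CPM in PON1-OE. PON1-OE replicate 2 was the highest library and the other PON1-OE libraries the lowest, with a log2FC of −0.026 (95% interval −0.096 to 0.045). *CANX* had means of 1017 ± 35.4 and 1021 ± 31.3 CPM (SD, n = 3) and a log2FC of 0.0066. *HYOU1* (ENSG00000149428; GRCh38 chr11:119044189-119057202) encodes a large Hsp70-related protein that acts as a nucleotide exchange factor of BiP. Its levels were 520.1, 519 and 500.4 CPM in NC and 542, 547 and 563 CPM in PON1-OE. All 3 PON1-OE libraries lay above all 3 NC libraries. The log2FC was 0.10 (SE 0.034), with an unadjusted p of 0.00778 and an adjusted p of 0.237 by edgeR's quasi-likelihood test.

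**Figure D4:**
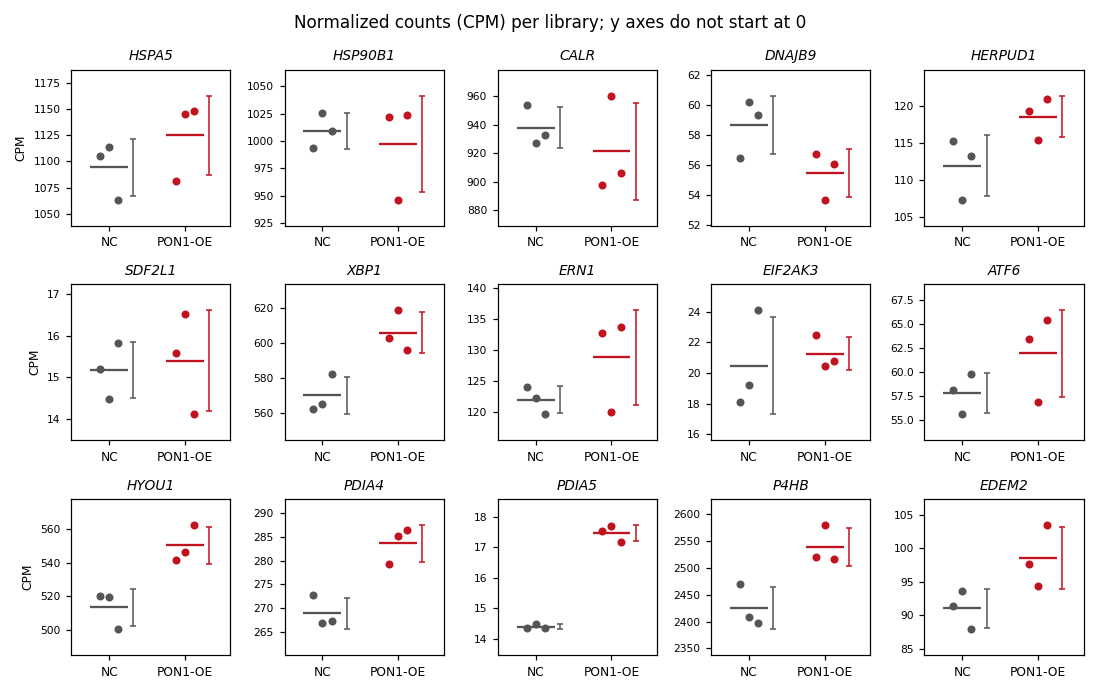
CPM (y axes, which do not start at 0) in each library of NC (grey) and PON1-OE (red) for the 15 tested genes whose values are given for every library, with 1 panel a gene; horizontal lines are means and bars beside them the SD of 3 libraries. *HYOU1*, *PDIA4*, *PDIA5*, *P4HB*, *XBP1*, *EDEM2* and *HERPUD1* show no overlap between the groups, while *HSPA5*, *HSP90B1* and *CALR* do overlap.

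Among the co-chaperones of BiP, 3 genes were higher and 3 lower (median log2FC −0.0032), none had an unadjusted p under 0.05, and all 6 overlapped between the groups. *DNAJB9*, a J-domain protein that is a common target of spliced XBP1 and restrains IRE1, had 56.4, 60.2 and 59.3 CPM in NC and 56.7, 53.7 and 56.1 CPM in PON1-OE. Its PON1-OE libraries were on the low side but overlapped with NC, with a log2FC of −0.081 (95% interval −0.20 to 0.037). *SDF2L1*, which forms a complex with J-domain proteins and is a common UPR target, had 15.2, 14.5 and 15.8 CPM in NC and 15.6, 16.5 and 14.1 CPM in PON1-OE. The extremes of all 6 libraries were both PON1-OE libraries, with a log2FC of 0.023 (95% interval −0.18 to 0.22). The J-domain protein genes *DNAJC3* and *DNAJC10* had the lowest and the highest value of the group, with log2FC of −0.094 (95% interval −0.25 to 0.060) and 0.13 (−0.010 to 0.27). *SIL1*, a nucleotide exchange factor of BiP, had a log2FC of 0.078, and *DNAJB11* one of −0.029. *DNAJB11* shares exonic bases with another annotated gene on its strand, so its counts could be split between both. *MANF* and *CRELD2*, UPR targets whose products can be secreted, had means of 83.9 ± 1.49 and 86.4 ± 3.28 CPM and of 21.0 ± 0.199 and 20.7 ± 0.358 CPM (NC and PON1-OE, SD, n = 3). Their log2FC were 0.043 and −0.018, and both genes overlapped between the groups.

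Of the 10 genes of disulfide formation, 7 were higher and 3 lower (median log2FC 0.055), and 3 had an unadjusted p under 0.05, where 11.1% of all genes tested did. *PDIA5* (ENSG00000065485; GRCh38 chr3:123067062-123225227), a member of the protein disulfide isomerase family, had the highest log2FC of the 39 genes tested. NC libraries held 237, 262 and 245 estimated counts and PON1-OE libraries 288, 283 and 269, or 14.4, 14.5 and 14.4 CPM and 17.5, 17.7 and 17.2 CPM. The libraries of each group lay close together, and the groups did not overlap. At counts of this size, counting error alone is wider than the spread seen within each group. The closeness is therefore no measure of precision. The difference was 21.3%, a log2FC of 0.28 (SE 0.089, 95% interval 0.093 to 0.46). edgeR gave it an unadjusted p of 0.00524 and an adjusted p of 0.211. *PDIA5* was also among the less expressed isomerases, with 8.86 CPM per kilobase of exon. *P4HB* lay at the other end of the scale, with 2469, 2408 and 2398 CPM in NC and 2519.8, 2581 and 2516 CPM in PON1-OE. Its groups did not overlap, and the log2FC was 0.066 (SE 0.029; edgeR unadjusted p = 0.0351, adjusted p = 0.406). *PDIA4*, an isomerase with several thioredoxin-like domains, had 273, 267 and 267 CPM in NC and 279, 285 and 286 CPM in PON1-OE. It also showed no overlap, with a log2FC of 0.077 (SE 0.036; edgeR unadjusted p = 0.0438, adjusted p = 0.437). *PDIA3*, which works with calreticulin and calnexin on glycoproteins, had no overlap either, at a log2FC of 0.045 (95% interval −0.029 to 0.12). *ERP44*, which retains the oxidases in the ER, had a log2FC of 0.10 (95% interval −0.017 to 0.23), whereas *PDIA6*, *ERP29* and *TXNDC5* had log2FC of −0.0076, −0.024 and −0.056. *TXNDC5* shares exonic bases with the readthrough gene *BLOC1S5-TXNDC5*, so that its value is uncertain. *PDIA3* and *PDIA6* are among 7 genes of the set that overlap exons on the opposite strand, and whether the counting used strand is not given in the sources used here. The oxidase that reoxidizes the isomerases was present mainly as *ERO1A* (11.3 CPM per kilobase, log2FC 0.0046). *ERO1B* was near the limit of detection, with 10, 9 and 33 estimated counts in the NC and 16, 9 and 27 in the PON1-OE libraries, and its log2FC of 0.10 had an SE of 0.47.

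The 3 sensors and *XBP1* all had positive log2FC (median 0.083), and *XBP1* was the only one of the 4 with an unadjusted p under 0.05. *ERN1* had 124, 122 and 119.6 CPM in NC and 133, 120.0 and 134 CPM in PON1-OE. PON1-OE replicates 1 and 3 lay above NC and replicate 2 within it, with a log2FC of 0.079 (95% interval −0.020 to 0.18). *ATF6*, whose product is cut to release a transcription factor, had 58.1, 55.6 and 59.8 CPM in NC and 63.5, 56.8 and 65.5 CPM in PON1-OE. Here too PON1-OE replicates 1 and 3 lay above NC and replicate 2 inside its range, with a log2FC of 0.10 (95% interval −0.027 to 0.23). *EIF2AK3* was the least expressed sensor by CPM, with 18.1, 19.2 and 24.1 CPM in NC and 22.5, 20.4 and 20.8 CPM in PON1-OE. NC replicate 3 was the highest of all 6 libraries, and the log2FC was 0.053 (95% interval −0.15 to 0.26). *XBP1* (ENSG00000100219; GRCh38 chr22:28794555-28800597), the transcription factor gene downstream of IRE1, had 562, 565 and 582 CPM in NC and 603, 619 and 596 CPM in PON1-OE. All PON1-OE libraries were above all NC libraries, and the log2FC was 0.088 (SE 0.033; edgeR unadjusted p = 0.0155, adjusted p = 0.302). Per kilobase of exon, *XBP1* was at 288 CPM, far above *ERN1* (12.8), *ATF6* (7.99) and *EIF2AK3* (4.32).

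Of the ERAD and glycoprotein control genes, 10 of 11 were tested, and 9 were higher and 1 lower (median log2FC 0.043). *HERPUD1*, an ER membrane protein that gathers the degradation complex and is a common UPR target, had 115, 107 and 113 CPM in NC and 119, 116 and 121 CPM in PON1-OE. The groups were separated only narrowly, by PON1-OE replicate 2 and NC replicate 1. The log2FC was 0.084 (SE 0.046), with an unadjusted p of 0.0820 by edgeR's test. *EDEM2*, which starts the mannose trimming that marks misfolded glycoproteins, had 91.4, 93.6 and 88.0 CPM in NC and 97.7, 94.4 and 103 CPM in PON1-OE. These groups did not overlap either, and the log2FC was 0.11 (SE 0.050; edgeR unadjusted p = 0.0335, adjusted p = 0.401). Its relatives *EDEM1* and *EDEM3* had log2FC of 0.11 and 0.054, with overlapping groups. *SYVN1*, the ubiquitin ligase of the retrotranslocation complex, had a log2FC of 0.032, and its partner *SEL1L*, the only tested gene of this role below 0, one of −0.044 (95% interval −0.13 to 0.043). The derlins *DERL1* and *DERL2* had log2FC of 0.063 and 0.020. *DERL3* was at or below 3 counts in every library, with 0, 0 and 1 counts in the NC and 1, 3 and 2 in the PON1-OE libraries, and no fold is given. The lectin gene *OS9* and the glycoprotein folding sensor *UGGT1* had log2FC of 0.016 and 0.022. For the translocon, *SEC61A1* and *SEC61B*, channel subunits, had log2FC of 0.049 (95% interval −0.023 to 0.12) and −0.057 (−0.16 to 0.048).

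The genes with a complete ER stress element in their promoters had log2FC on both sides of 0. These 7 genes comprised 4 higher and 3 lower in PON1-OE, with log2FC from −0.026 to 0.10, a median of 0.0066 and 1 unadjusted p under 0.05 (*XBP1*). The highest value was that of *ERO1B*, which was near the limit of detection, and the next was that of *XBP1* (0.088). The 30 genes without the element, of those with a window and a test, had a median of 0.046, with 22 higher and 5 unadjusted p under 0.05, against 11.1% of all genes tested under that threshold. Among the windows printed above, no common direction was seen. *HSP90B1*, with 2 complete elements, had a log2FC of −0.017, and *HYOU1*, with none and a TGACGTGG, one of 0.10. The difference between these groups of genes was not tested.

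The libraries of a group differed from each other in ways that ran through the set. PON1-OE replicate 2 was the lowest PON1-OE library for 20 of the 39 genes, and PON1-OE replicate 3 the highest for 19. These deviations went with merged exonic length, a check that was chosen after the data were seen. Over 38 genes of the set, the rank correlation (Spearman) between exonic length and a library's deviation from its group mean was −0.622 in PON1-OE replicate 2 and 0.611 in PON1-OE replicate 3. Over 9689 genes with a mean count of at least 100, it was −0.314 and 0.188. In the other 4 libraries it lay between −0.247 and 0.283 in the set and between −0.115 and 0.192 over all these genes. The points share libraries and are across genes, which are not independent replicates. Deviations from a group mean are also tied to each other, so the opposite signs in PON1-OE replicates 2 and 3 are not separate findings. In PON1-OE replicate 2, the median deviation was 0.021 for the 19 shorter genes and −0.050 for the 19 longer ones on the log2 scale. The difference between the group means correlated with length at 0.192 in the set and at −0.111 over all these genes. The part of this pattern in the differences between the groups was not tested.

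**Figure D5:**
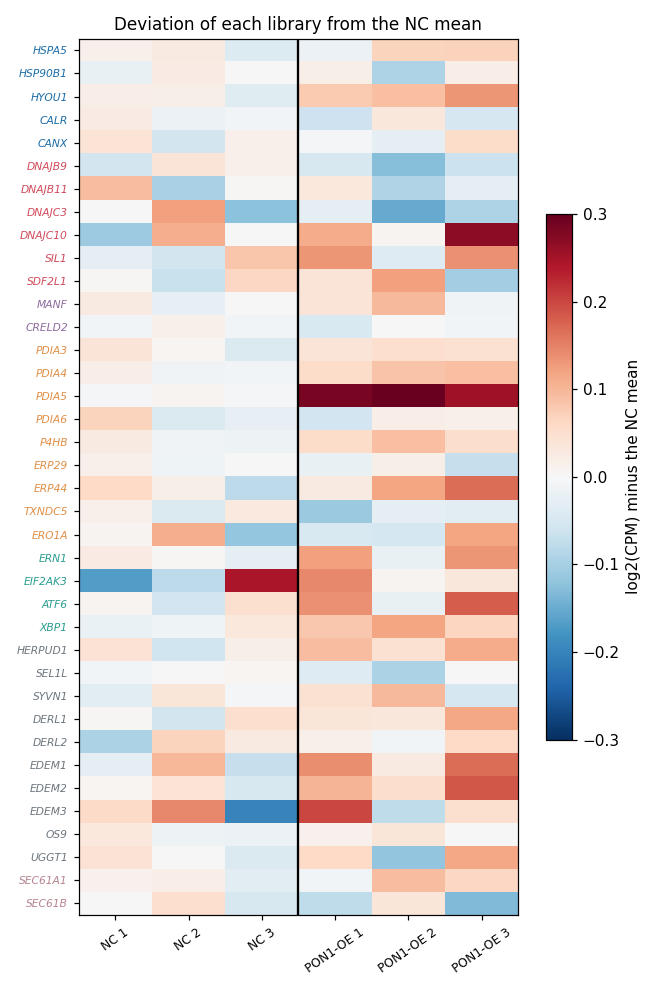
Log2 CPM of each library minus the NC mean (colour, from blue for lower to red for higher, limits ±0.3) for 38 genes in rows, ordered and coloured by role, and the 6 libraries in columns, with NC left of the black line. The PON1-OE columns hold more red than blue, in mostly pale shades, and *PDIA5* is deep red in all 3.

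A wider list of 84 other genes of the ER pathways was read in the same way. Of these, 83 were tested (all but *GPX7*). None had an adjusted p under 0.05 by edgeR's test or limma-voom, nor by DESeq2 where it gave one. DESeq2 gave no adjusted p for at least *TMX4*, *SEC24D* and *UGGT2*. Of the 83 genes, 45 were higher and 38 lower, with a median log2FC of 0.016. An unadjusted p under 0.05 was found for 13, or 15.7% (9 higher and 4 lower), against the 11.1% of all genes. Every PON1-OE library lay above every NC library for 13 genes and below for 10, against 8.32% and 7.74% of all genes tested. In contrast to the 39 genes of the set, the list thus held genes in both directions at that threshold, but the difference between both lists was not tested. Of the genes of the PERK branch on the list, *ATF4*, *DDIT3* (CHOP), *TRIB3* and *ATF3* had log2FC of −0.024, −0.048, 0.023 and 0.053, all with overlapping groups. *PPP1R15A*, which encodes the phosphatase subunit GADD34 that ends the PERK signal, had a log2FC of 0.072 (edgeR unadjusted p = 0.0340, adjusted p = 0.403). *CREB3L3*, a liver transcription factor that is tethered to the ER membrane, had the lowest log2FC of the list. It had 54.0, 35.7 and 55.1 CPM in NC and 39.0, 40.02 and 35.7 CPM in PON1-OE. NC replicate 2 lay with the PON1-OE libraries, and NC replicates 1 and 3 above them. The log2FC was −0.33 (SE 0.11; edgeR unadjusted p = 0.00664, adjusted p = 0.225). The value rested on the NC libraries. It was −0.51 without NC replicate 2 (edgeR adjusted p = 0.00056), −0.24 without NC replicate 1 (adjusted p = 0.617) and −0.22 without NC replicate 3 (adjusted p = 0.662). The adjusted p was 0.0111 without the filter on low counts, 0.534 by DESeq2 and 0.335 by limma-voom, and the unadjusted p was under 0.05 in 10 of 13 alternatives. Among the genes with an unadjusted p under 0.05, the next lower were the cargo receptor subunit *MCFD2* (log2FC −0.13), the retrieval receptor *KDELR2* (−0.082) and the signal peptidase subunit *SPCS2* (−0.081). Those with the highest log2FC were *UGGT2* (0.36), a relative of *UGGT1*, the vesicle coat gene *SEC24D* (0.17), the thioredoxin-related *TMX4* (0.16) and the sulfhydryl oxidase *QSOX1* (0.14), which had the smallest adjusted p of the list (0.146, edgeR).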

How the data were processed

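Poly(A) RNA of 3 PON1-OE and 3 NC libraries was sequenced on an Illumina NovaSeq instrument after preparation with the NEBNext Ultra RNA kit. The table that the authors deposited gives unnormalized estimated counts of 20381 genes, of which 649 had no symbol. Of its values, 10.5% were not whole. The submitters' processing notes name Bowtie2 2.2.8, HISAT2, StringTie 1.3.1 and DESeq2, without their roles. The sources used here do not give the genome build, the annotation, the counting tool or its strand setting. The design text and the study's methods differ in serum content.

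Estimated counts were rounded to whole numbers, a step that the design, set for counts, had allowed for. Genes were filtered with filterByExpr, scaled by TMM and tested in R 4.3.3 with edgeR 4.0.16 (glmQLFit, glmQLFTest; PON1-OE against NC, no covariate). Adjusted p-values are Benjamini-Hochberg values for 11958 tested genes, and 95% intervals were taken from the fitted log2FC, its SE and the total degrees of freedom. The common dispersion was 0.00192. At 15706672 to 17948383 counts a library, a floor of 3 counts was 0.166 to 0.192 CPM, which covers counting error only. Pairs of libraries of a group differed beyond sampling noise (chi-square per degree of freedom 2.11 to 4.11). No batch or date is given in the labels.

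The genes and lists were chosen with earlier results of these data known. Values in every library were given for 10 core genes (main chaperones, common targets, the sensors and *XBP1*), members with an unadjusted p under 0.05 and members removed by the filter. From the wider list of 84 genes, which was written by hand, genes with an adjusted p under 0.05 and, per direction, the 4 most changed at an unadjusted p under 0.05 at most were named, with *ATF4*, *DDIT3*, *TRIB3*, *ATF3* and *PPP1R15A* added as the PERK branch after their values were seen. Exon lengths, coordinates and overlaps came from GENCODE v29 (20102 of the identifiers matched), and promoters from RefSeq (GRCh38.p14), both independent of the authors' build. The length check used log2(CPM + 0.5). Alternatives were unrounded counts, size factors by RLE, a fit without the filter, a minimum of 10 counts per library, DESeq2 1.42.0, limma-voom (limma 3.58.1), the replicate number as a block and each library left out in turn. The fit was tested on simulated counts.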

Additional observations from a re-analysis of the deposited data

How the results depend on the processing

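None of the 39 tested ER chaperone and UPR genes had an adjusted p under 0.05 under any of 13 alternatives that gave one. The smallest adjusted p was 0.0789 (*HYOU1*, DESeq2). DESeq2 gave no adjusted p for at least *PDIA5*, *EIF2AK3* and *SDF2L1*. The count at an unadjusted p under 0.05 by edgeR's test was 6, where 11.1% of all genes tested were picked. With a library left out it ranged from 3 to 11, and the share of all genes from 8.17% to 12.9%. It was 5 of 40 by DESeq2, where 5.51% of all genes were picked, and 4 under the block, where 9.62% were. Otherwise it stayed at 6, where 9.95% to 11.5% of all genes were picked. *HYOU1* and *PDIA5* stayed under 0.05 in 13 of 13 alternatives, *XBP1* in 12, *P4HB* and *EDEM2* in 9 and *PDIA4* in 6. The median log2FC of the set ranged from 0.033 to 0.048 with a library left out. In the wider ER list, the count of 13 was 8 by DESeq2 and 4 to 16 with a library left out, against the same shares of all genes. The adjusted count was 1 without the filter and 0 to 1 with a library left out (*CREB3L3*). The median of 0.016 ranged from 0.00089 to 0.018. For *PON1* the log2FC was 6.13 to 7.33 with a library left out. DESeq2 gave no adjusted p for *PON1*, so its fit was left out here, and the minimum of 10 counts in every library removed *PON1*. Of 299 alternative values of 23 named genes, 4 reversed sign, all with a library left out: *EIF2AK3* (−0.026 without NC replicate 1, range −0.026 to 0.19), *SDF2L1* (−0.010 without NC replicate 2 and −0.029 without PON1-OE replicate 2, range −0.029 to 0.081) and *HSP90B1* (0.020 without PON1-OE replicate 2, range −0.036 to 0.020). The cause was not tested. Over all genes, the adjusted count of 81 was 177 without the filter, 123 by DESeq2, 40 under the block and 11 to 103 with a library left out, and the unadjusted count of 1325 was 857 by DESeq2.

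Deviations from the group means of same-numbered libraries correlated at 0.114, −0.272 and −0.203, and not every library correlated best with its own number. Because each deviation is taken from the mean of its own group, these correlations depend on each other. They cannot decide whether libraries were prepared in pairs. With the replicate number as a block, 4 genes of the set and 9 of the wider list had an unadjusted p under 0.05. Of all genes tested, 9.62% did. No adjusted p passed in either list, the medians were 0.042 and 0.017, and the log2FC of *PON1* was 6.66. Low counts limited the values of *ERO1B* and *DERL3*.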

Other observations

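The ER stress element, searched as in the set, was found in 22 of the 27305 RefSeq promoter windows, and 15 of these belonged to genes outside the set. Of these 15 genes, 7 were tested, and they were named after their values were seen. *SERP1*, which stabilizes membrane proteins during ER stress, had a log2FC of 0.046, and *FICD*, the enzyme that attaches AMP to BiP, one of 0.14. The mannosyltransferase gene *ALG12* had a log2FC of −0.037 and the translation factor gene *EIF2A* one of −0.042. *TMEM120A*, *TRIM5* and *ZNF17* had log2FC of 0.070, −0.095 and −0.16. The 7 genes had a median of −0.037, 3 were higher in PON1-OE, and none had an unadjusted p under 0.05 by edgeR's quasi-likelihood test. *SERP1* and *EIF2A* overlap in 146 exonic bases on opposite strands. As both strands were searched, their windows may hold the same element, which was not checked. The other windows belonged to genes that were not tested.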
